A study of Mus musculus with 24 samples.

Results

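Skeletal muscle of *Trex1* knockout mice given SN-011 was compared with muscle of *Trex1* knockout controls by bulk RNA sequencing. The 6 libraries with the tissue label Muscle make up the comparison, 3 from SN-011 mice and 3 from controls, of 24 in the series, which also holds heart, stomach and tongue. Every mouse, control or treated, lacked *Trex1* on a C57BL/6J background, and no wild-type muscle was analysed here. The labels give SN-011 at 5 mg/kg 3 times a week for 4 weeks and call the controls untreated. The methods give another schedule, a higher dose every day over a shorter course in mice about a month old, with a Tween 80 and PBS vehicle for the controls. Which schedule these libraries come from cannot be told apart from the files, and the labels do not name the muscle that was taken. Libraries are called control 1, 2 and 3 and SN-011 1, 2 and 3 after their labelled numbers.

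TREX1 is an exonuclease that degrades DNA in the cytosol. Without it, DNA builds up and is bound by the sensor cGAS, whose product activates STING, and STING signalling through TBK1 and IRF3 induces type I interferons. Interferon binds its receptor and, through JAK kinases and STAT factors, turns on a large group of interferon-stimulated genes, many of which carry GAAA repeats of the interferon-stimulated response element in their promoters. SN-011 is a small molecule STING antagonist. Skeletal muscle is mostly multinucleated fibres, with satellite cells, vessels, fibroblasts, tendon cells and resident macrophages between them, and its fibres have a well-known breakdown programme in which FoxO factors and the glucocorticoid receptor raise ubiquitin ligases and autophagy genes.

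The libraries had total counts of 14253416 to 18443329, and the floor set at 3 counts was at 0.151 to 0.245 CPM, a limit that covers counting error only. Levels are CPM, counts scaled to a common total with edgeR's TMM factors over the 6 libraries. *Trex1* had 0 counts in all 6, which does not check the genotype, because *Atrip* shares its strand and place. Control 1 had 3060 counts of the X-linked *Xist* and 0 of the Y-linked *Ddx3y*, and the other 5 libraries had 0 to 5 of *Xist* and at least 1039 of *Ddx3y*, so that the controls hold a female and the SN-011 group does not. Per length of the gene model, *Acta1*, the skeletal actin, had 57108 to 69398.5 TPM, a level scaled for gene length, and *Myh4*, the myosin of fast IIB fibres, made up 89.5% to 94.6% of the summed level of the adult myosins *Myh1*, *Myh2*, *Myh4* and *Myh7* in every library.

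SN-011 2 stood apart from the other 5 libraries. It had counts on 11546 genes, against 19798 to 21387 in the others, and only 530 genes with 1 to 9 counts, against 6008 to 6862. Of 12988 genes with at least 10 counts in each of the other 5 libraries, 2586 had 0 counts in SN-011 2, and a 0 there places that library below the controls whatever the level of the gene. Its total, 14253416 counts, was the lowest of the 6. The number of genes with counts was 21119 ± 362 in controls and 17401 ± 5098 with SN-011 (SD over 3 samples each), and an exact permutation test over 20 relabellings, two-sided, gave p = 0.2, where 0.1 is the smallest it allows. Results are therefore given for the 6 libraries and for 5, without SN-011 2. The 5-library comparison rests on 2 SN-011 samples, and nothing in the labels says which mice or cages they came from, so that its p-values measure the spread between these samples only.

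**Figure D1:**
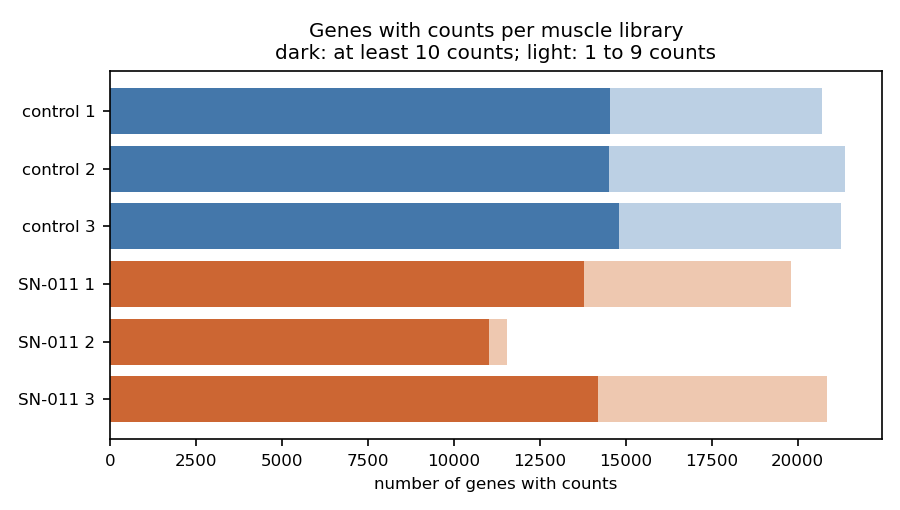
Number of genes with counts in each muscle library (horizontal axis), split into genes with at least 10 counts (dark) and genes with 1 to 9 counts (light), controls in blue and SN-011 in orange. SN-011 2 has 11546 genes with counts and nearly no light segment, and the other 5 libraries have 19798 to 21387.

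With all 6 libraries, 2 of 14198 genes tested (0.0141%) passed, 1 lower and 1 higher (0.00704% each). Passing means an adjusted p under 0.05 by the Benjamini-Hochberg method in edgeR's quasi-likelihood test, here and below. The lower gene was *Fmod* (ENSMUSG00000041559, chromosome 1 of GRCm38, 134037254 to 134048277, plus strand), which encodes fibromodulin, a small proteoglycan that binds collagen fibrils in tendon and other connective tissue. *Fmod* stood at 62.8, 82.2 and 75.3 CPM in controls 1 to 3 and at 15.3, 15.1 and 13.8 CPM in SN-011 1 to 3, with a log2 fold change of −2.32 (standard error, SE, 0.15, adjusted p = 0.0313). The higher gene was *Cdkal1* (ENSMUSG00000006191, chromosome 13 of GRCm38, 29191746 to 29855674, minus strand), a methylthiotransferase that modifies lysine transfer RNA, with 13.9, 11.8 and 14.8 CPM in the controls and 57.4, 55.7 and 48.6 CPM in SN-011 samples (log2 fold change 1.99, SE 0.15, adjusted p = 0.0438). Both genes had groups that did not overlap, and SN-011 2 lay with SN-011 1 and 3 at each. *Cdkal1* overlaps the predicted gene Gm11364 on its own strand. An unadjusted p under 0.05 was reached by 1272 higher (8.96%) and 823 lower genes (5.8%).

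Without SN-011 2, 1103 of 14903 genes tested (7.4%) passed, 537 higher (3.6%) and 566 lower (3.8%). The median size of the changes was a log2 fold change of 0.89 among the higher and −1.05 among the lower genes, and 236 and 301 of them had at least a 2-fold change. At the 537 higher genes, SN-011 2, which was not used to call them, lay above all controls for 378, and 52 had 0 counts there. At the 566 lower genes it lay below all controls for 490, of which 159 had 0 counts and so fell below by the lack of counts described above. Over all genes tested with 6 libraries, the groups of 3 did not overlap for 19.8% in the lower and 14.7% in the higher direction. That share asks for all 3 SN-011 samples, while the called genes were chosen by SN-011 1 and 3. It is therefore no background for SN-011 2 alone. The share of all genes with SN-011 2 beyond the controls was not computed, so that these counts are not read as support for the calls. The called counts moved with single libraries: 29 genes passed without control 2 as well and 60 without control 3, 4407 passed without control 1 (2197 higher and 2210 lower of 14584 genes), and 0 passed without SN-011 1 or SN-011 3, where a single SN-011 library remained. Scaling by library size alone, without TMM, shifted the median log2 fold change of all genes from −0.02 to −0.21 and gave 355 higher and 1744 lower genes. DESeq2 passed 1096 higher and 1044 lower genes here, and at an unadjusted p under 0.05 in edgeR's quasi-likelihood test 14.6% of all genes were higher and 16.3% lower. Directions below are to be read against the median of all genes.

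Interferon-induced GTPases, the guanylate-binding proteins and the immunity-related GTPases, are proteins recruited to the vacuoles of intracellular pathogens. All 16 listed members were tested and 9 passed as lower, none as higher, against 3.8% lower over all genes, and the median log2 fold change was −1.07 against −0.02 over all genes. All 16 had a negative log2 fold change in both comparisons. Their promoters were searched for the core of the interferon response element, GAAA and GAAA with any 2 bases between them. In the RefSeq promoter table (GRCm38.p6), the 250 bases before the start held this core on either strand in 9 of 10 promoters, from 9 of the 16 listed genes, and in 2.98% of all 32851 promoters. The STAT core TTCNNNGAA was in 6 of those 10 and in 7.02% of all. The 250 bases before the start are given 5′ to 3′ along the gene for *Irgm2* and *Gbp5*, with each match to the interferon core on either strand in capitals. *Irgm2*, chr11:58214727-58214976, plus strand, has its match 64 bases upstream of the start, counted to the far end of the match. *Gbp5*, chr3:142496684-142496933, plus strand, has it 165 bases upstream.
Irgm2: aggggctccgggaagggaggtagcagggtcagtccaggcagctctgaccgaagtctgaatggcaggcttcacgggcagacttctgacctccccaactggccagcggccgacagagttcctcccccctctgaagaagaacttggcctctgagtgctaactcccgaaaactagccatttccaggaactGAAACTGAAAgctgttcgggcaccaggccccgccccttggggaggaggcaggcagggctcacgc
Gbp5: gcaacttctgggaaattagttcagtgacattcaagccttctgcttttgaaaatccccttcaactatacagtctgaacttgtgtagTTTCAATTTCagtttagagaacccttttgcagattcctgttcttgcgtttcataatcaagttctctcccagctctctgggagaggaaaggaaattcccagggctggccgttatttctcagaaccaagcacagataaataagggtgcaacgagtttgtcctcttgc

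*Irgm2* itself stood at 215, 258 and 221 CPM in the controls and 58, 86.4 and 86.4 CPM in SN-011 1 to 3, so that every SN-011 sample lay below every control. Without SN-011 2 the log2 fold change came to −1.68 (SE 0.19, adjusted p = 0.0196) and −1.59 (adjusted p = 0.0764) with it. It overlaps *Igtp* on the same strand, and reads that fit both may not have been counted. *Iigp1*, an immunity-related GTPase, fell from 276, 333 and 297 CPM to 55.3, 44.7 and 81.4 CPM, a log2 fold change of −2.15 (SE 0.19, adjusted p = 0.0146), and −2.32 over 6 libraries (adjusted p = 0.075). *Gbp9* had 31.7, 25.5 and 35.5 CPM in controls and 9.54, 7.1 and 10.8 CPM in SN-011 samples (log2 fold change −1.6, SE 0.17, adjusted p = 0.0196), and overlaps *Gbp8* and *Gbp4* on its strand. *Gbp5* had 19.2, 22.1 and 23.1 CPM and then 4.67, 0 and 7.37 CPM, its 0 being that of SN-011 2, with a log2 fold change of −1.83 (SE 0.21, adjusted p = 0.0196). For *Irgm2*, *Iigp1* and *Gbp9* the groups of 3 did not overlap, and SN-011 2 stood among or beyond the other SN-011 samples. With 6 libraries, 0 members passed in edgeR's quasi-likelihood test, and 10 were lower at an unadjusted p under 0.05, beside 5.8% of all genes. In DESeq2 8 members passed as lower, beside 412 of 14198 genes.

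Of 49 listed antiviral effectors 48 were tested, 18 passed as lower and none as higher, against 3.8% and 3.6% of all genes, 39 had a negative log2 fold change, against 52.1% of all genes, and the median was −0.71. With library size alone 29 passed as lower. In the promoter table, 17 of 50 promoters of 40 listed genes held the interferon core. *Isg15*, a ubiquitin-like protein that is attached to other proteins after interferon, and *Ifit3*, which binds the cap-sensing protein IFIT1, are shown with their promoters because their matches are repeated. *Isg15*, chr4:156200819-156201068, minus strand, has 3 overlapping matches in a stretch that starts 78 bases before the start. *Ifit3*, chr19:34583279-34583528, plus strand, has 2 separate matches, the far one 156 bases before the start.
Isg15: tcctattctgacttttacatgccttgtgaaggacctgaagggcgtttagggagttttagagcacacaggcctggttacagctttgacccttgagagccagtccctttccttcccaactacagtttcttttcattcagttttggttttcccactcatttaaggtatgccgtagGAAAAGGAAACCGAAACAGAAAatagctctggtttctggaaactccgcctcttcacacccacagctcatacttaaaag
Ifit3: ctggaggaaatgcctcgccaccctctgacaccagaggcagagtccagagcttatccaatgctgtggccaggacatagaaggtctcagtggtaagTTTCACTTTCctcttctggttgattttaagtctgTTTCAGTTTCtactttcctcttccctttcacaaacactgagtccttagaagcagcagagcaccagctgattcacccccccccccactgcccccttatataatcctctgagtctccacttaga

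*Isg15* had 31.2, 31 and 42.3 CPM in the controls and 12.7, 12.3 and 15.1 CPM in SN-011 samples (log2 fold change −1.32, SE 0.18, adjusted p = 0.0229), and *Ifit3* had 134, 141 and 173 CPM and 56.7, 71.6 and 79.3 CPM (log2 fold change −1.14, SE 0.18, adjusted p = 0.0297). Neither gene had overlapping groups. *Mx1*, a dynamin-like antiviral GTPase, fell from 15.1, 15.2 and 15.8 CPM to 5.32, 0 and 7.26 CPM (log2 fold change −1.29, SE 0.16, adjusted p = 0.0203). *Rtp4*, a transporter-like protein that restricts viral replication, fell from 21.1, 20.8 and 24.7 CPM to 11.8, 20.7 and 13.5 CPM, where SN-011 2 was barely below the lowest control (log2 fold change −0.81, SE 0.13, adjusted p = 0.0297). SN-011 2 was at 0 for *Mx1*, at control level for *Rtp4* and with its group for *Isg15* and *Ifit3*. Over 6 libraries 0 of the 48 passed in edgeR's quasi-likelihood test, and 19 were lower and 1 higher at an unadjusted p under 0.05, beside 5.8% and 8.96% of all genes. In DESeq2 14 of the 48 passed as lower, beside 412 of 14198 genes.

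Of 19 genes of nucleic acid sensing tested, 3 passed as lower and 1 as higher, against 3.8% and 3.6% of all genes, with a median of −0.26. With library size alone 4 passed as lower and 0 as higher, with a median of −0.45. *Ifih1*, the long double-stranded RNA sensor MDA5, fell from 26.1, 25.9 and 28.6 CPM in the controls to 14.4, 4.73 and 15 CPM (log2 fold change −0.87, SE 0.11, adjusted p = 0.0198). *Zbp1*, a sensor of Z-form nucleic acid that can start necroptosis, fell from 27.9, 26 and 35.6 CPM to 11.4, 8.4 and 15.6 CPM (log2 fold change −1.14, SE 0.20, adjusted p = 0.0315). Both are themselves interferon-stimulated, as is *Dhx58*, the RIG-I relative LGP2, which fell from 13.4, 10.7 and 11.9 CPM to 4.87, 5.22 and 6.86 CPM (log2 fold change −1.03, adjusted p = 0.0382). *Mavs*, the mitochondrial adaptor of the RNA sensors, rose from 36.4, 38.3 and 40.1 CPM to 55.8, 49.3 and 55.5 CPM (log2 fold change 0.54, SE 0.10, adjusted p = 0.034). The drug's target had low counts in muscle. *Tmem173*, the name in the annotation of the gene for STING, had 4.33, 6.11 and 5.75 CPM in controls and 5.58, 0 and 5.73 CPM in SN-011 samples, with a log2 fold change of 0.07 (SE 0.21, adjusted p = 0.848). *Cgas* had 0.369, 1.3 and 1.56 CPM and 0.908, 0 and 0.964 CPM (log2 fold change −0.20, SE 0.60, adjusted p = 0.842), levels close to the floor, where a change of this size was not detectable at this depth.

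In the interferon receptor and JAK-STAT list of 17 genes, 2 passed as lower and 1 as higher, against 3.8% and 3.6% of all genes. With library size alone 7 passed as lower and 1 as higher, beside 1744 and 355 of 14903 genes. Without control 1 as well as SN-011 2 these were 8 and 3, beside 2210 and 2197 of 14584 genes. *Irf1*, a transcription factor induced by interferon gamma, had 23.5, 34.6 and 39.2 CPM in controls and 14, 24.7 and 16.5 CPM in SN-011 samples (log2 fold change −1.09, SE 0.23, adjusted p = 0.0454). SN-011 2 lay within the control range, so that the groups of 3 overlapped. *Usp18*, which removes ISG15 from proteins and dampens the type I interferon receptor, moved the other way from the effectors, from 58.1, 55 and 55 CPM to 96.1, 96 and 83 CPM in samples whose groups did not overlap (log2 fold change 0.68, SE 0.11, adjusted p = 0.0287). *Usp18* is itself counted among interferon-stimulated genes. Over 6 libraries its log2 fold change was 0.71 (adjusted p = 0.0948).

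Of 22 chemokine and chemokine receptor genes tested, 3 passed as lower and 3 as higher, against 3.8% and 3.6% of all genes. *Cxcl10*, an interferon-induced ligand of CXCR3 that draws T cells, fell from 15.4, 14.7 and 21.1 CPM to 3.83, 0 and 6.58 CPM, of which the 0 is SN-011 2 (log2 fold change −1.7, SE 0.28, adjusted p = 0.0297). Its promoter, chr5:92348890-92349139 on the minus strand, is shown because its match is the most distant of the 5 printed, 213 bases before the start. *Cxcl10* overlaps *Art3* on the other strand.
Cxcl10: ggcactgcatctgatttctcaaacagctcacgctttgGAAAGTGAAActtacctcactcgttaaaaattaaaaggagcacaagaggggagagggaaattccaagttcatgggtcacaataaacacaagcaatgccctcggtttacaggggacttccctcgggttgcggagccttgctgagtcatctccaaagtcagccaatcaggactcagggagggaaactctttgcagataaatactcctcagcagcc

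The genes that passed as higher were *Ccl6*, *Ccl9* and *Cxcl13*. *Ccl6* and *Ccl9*, CCR1 ligands made by myeloid cells in mice, rose from 38.4, 36.8 and 29.96 CPM to 103, 51.2 and 85.5 CPM (log2 fold change 1.43, SE 0.15, adjusted p = 0.0194) and from 31.6, 21.3 and 23.3 CPM to 68.4, 64 and 60.7 CPM (log2 fold change 1.35, SE 0.18, adjusted p = 0.0215), without overlap at either gene. *Cxcl13*, the CXCR5 ligand that attracts B cells, rose from 1.06, 0.679 and 0.454 CPM to 6.55, 0 and 4.93 CPM (log2 fold change 2.97, SE 0.35, adjusted p = 0.0198), with SN-011 2 at 0. Of 15 macrophage markers tested, 4 passed as higher, *Cd14*, *Csf1r*, *C1qb* and *Lyz2*, and none as lower, against 3.6% and 3.8% of all genes. The summed level of the list was 658 to 715 CPM in controls and 689 to 903 CPM in SN-011 samples, so that the groups overlapped. No marker was at 0 in any library but SN-011 2, where 3 were, and with scaling by library size alone 1 marker passed. *C1qb* had 103, 89.98 and 92.1 CPM and 132, 142 and 142 CPM (log2 fold change 0.52, SE 0.10, adjusted p = 0.042). The groups of 3 overlapped at *Cd14*, *Csf1r* and *Lyz2*, where SN-011 2 stood at 0, 29.6 and 173 CPM and the lowest control at 5.3, 26.3 and 189 CPM. Their log2 fold changes were 1.07, 0.59 and 0.52 without SN-011 2 and 0.49, 0.44 and 0.31 with it. In bulk tissue, more or fewer cells of a type and more or less RNA per cell cannot be told apart, and the part of macrophages in the chemokine changes was not tested.

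All 19 genes tested of the MHC class I pathway, which presents peptides to T cells, had a negative log2 fold change without SN-011 2, against 52.1% of all genes, and 2 passed as lower, against 3.8% of all genes, with a median of −0.41. With library size alone 13 passed as lower. *Tap2*, a subunit of the peptide transporter into the endoplasmic reticulum, fell from 32.2, 27.5 and 29.2 CPM to 15.1, 25 and 18.4 CPM (log2 fold change −0.83, SE 0.13, adjusted p = 0.029), and *Nlrc5*, the transactivator of class I genes, fell from 31.7, 27.5 and 31.5 CPM to 12.1, 0 and 18.1 CPM (log2 fold change −1.0, adjusted p = 0.0353). *Tap1*, the partner of TAP2, had 73, 58.2 and 66.5 CPM and 40.5, 36.5 and 48.1 CPM, and missed the threshold (log2 fold change −0.57, adjusted p = 0.0559). In class II, 1 of 9 genes passed, *Ciita*, the master transactivator of class II genes, lower from 4.38, 6.0 and 6.1 CPM to 2.21, 0 and 2.72 CPM (log2 fold change −1.15, adjusted p = 0.0455). In the necroptosis and pyroptosis list 3 of 15 passed, all lower: *Zbp1*, *Mlkl* and *Casp12*. *Mlkl*, the membrane-permeabilizing effector of necroptosis, had 5.7, 4.07 and 4.89 CPM in controls and 2.01, 3.75 and 2.44 CPM in SN-011 samples (log2 fold change −1.13, SE 0.24, adjusted p = 0.0456), and the control and SN-011 groups stood close, 4.07 CPM in the lowest control against 3.75 CPM in SN-011 2.

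**Figure D2:**
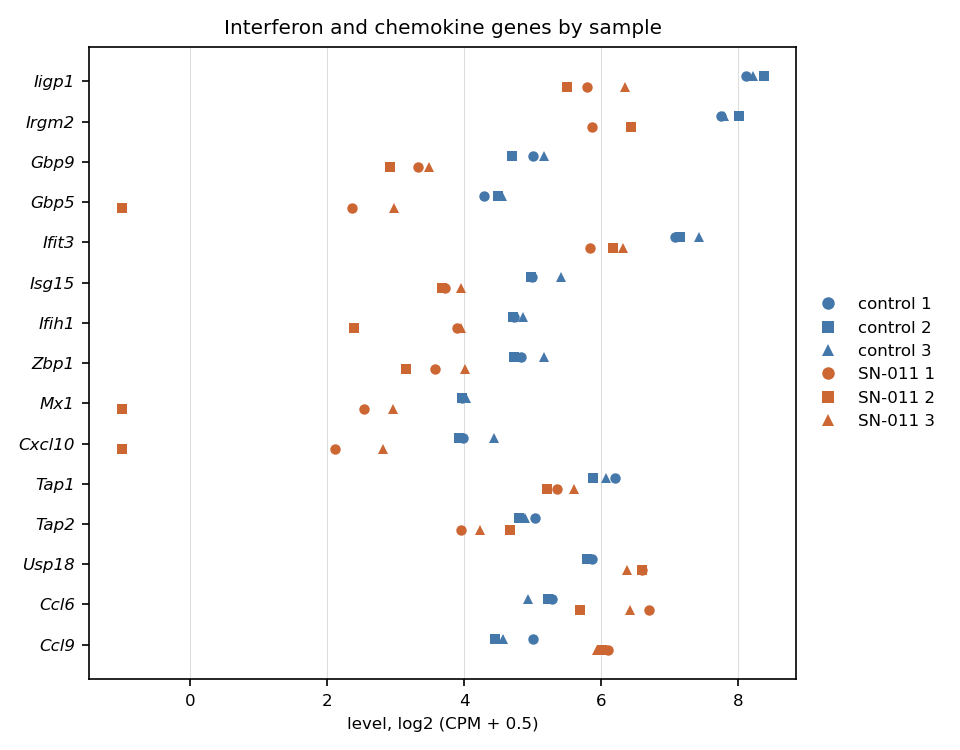
Level of interferon, antigen presentation and chemokine genes in each library, as log2 (CPM + 0.5), with controls in blue and SN-011 in orange and a marker shape for each replicate number. For *Gbp5*, *Mx1* and *Cxcl10* the SN-011 2 point at the left edge is a count of 0, and *Usp18*, *Ccl6* and *Ccl9* are the genes drawn with SN-011 samples to the right of the controls.

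The study's own signature of the cGAS-STING pathway, called M7core, is broader than the lists above, and its direction is not independent evidence, having been derived from experiments on the same pathway. Of its 159 genes 156 were tested without SN-011 2, 37 passed as lower and 6 as higher, against 3.8% and 3.6% of all genes, so that the higher count was near its background. The median log2 fold change was −0.43, and with library size alone 65 passed as lower and 4 as higher. Of its 118 genes that the study places outside established interferon modules 115 were tested, 23 passed as lower and 6 as higher, with a median of −0.30. *Cd274*, which encodes the checkpoint ligand PD-L1, fell from 39.6, 33.8 and 40.5 CPM to 13.5, 30.1 and 14.1 CPM, with SN-011 2 close to the controls (log2 fold change −1.46, SE 0.13, adjusted p = 0.0146). *Tgif1*, a homeodomain repressor of TGF-beta and retinoid signalling, rose from 10.4, 8.49 and 9.08 CPM to 51, 25.7 and 37.8 CPM (log2 fold change 2.25, SE 0.16, adjusted p = 0.0146).

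Of 25 listed atrophy and FoxO target genes, all were tested, all had a positive log2 fold change in both comparisons, and 12 passed as higher without SN-011 2, against 3.6% over all genes. The median log2 fold change was 1.10. *Gabarapl1*, an ATG8 protein of the autophagosome, had 131, 82.4 and 54.1 CPM in controls and 481, 263 and 358 CPM in SN-011 samples (log2 fold change 2.24, SE 0.34, adjusted p = 0.0275). *Bnip3*, a mitophagy receptor, had 162, 143 and 116 CPM and 463, 200.1 and 355 CPM (log2 fold change 1.54, SE 0.18, adjusted p = 0.0196). *Ulk1*, the kinase that starts autophagy, had 151, 147 and 95.3 CPM and 399, 240.1 and 325 CPM (log2 fold change 1.47, SE 0.21, adjusted p = 0.0251). *Fbxo31*, a ubiquitin ligase subunit, had 245, 205 and 191 CPM and 491, 340.2 and 424 CPM (log2 fold change 1.1, SE 0.14, adjusted p = 0.0202). At these genes no SN-011 sample overlapped a control, and SN-011 2 was the lowest of its group. Over 6 libraries 0 of the 25 passed in edgeR's quasi-likelihood test, and 20 were higher at an unadjusted p under 0.05, beside 8.96% of all genes. In DESeq2 16 of the 25 passed as higher, beside 468 of 14198 genes.

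The ubiquitin ligases that mark muscle atrophy in textbooks, named here after their values were seen, had a wide spread among controls. *Fbxo32*, or atrogin-1, had 1329.8, 692 and 728 CPM in controls and 2575, 2003 and 2203 CPM in SN-011 samples (log2 fold change 1.38, SE 0.28, adjusted p = 0.0436). *Trim63*, or MuRF1, had 2307, 440.3 and 419 CPM and 4986, 4838 and 4269 CPM and did not pass (log2 fold change 2.13, SE 0.73, adjusted p = 0.111). Control 1, the female, was the highest control at both and lay between the other controls and the SN-011 samples. The part of the sex of the mice in these levels was not tested. Without control 1 and SN-011 2 together, 23 of the 25 passed as higher, beside 2197 of 14584 genes. The median was 1.54, in a comparison of 2 samples with 2. Genes for proteasome subunits, a list chosen after the values were seen, had 8 of 31 higher and none lower, against 3.6% and 3.8% of all genes, with a median of 0.38, and with library size alone 1 passed and the median was 0.20.

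Of 15 glucocorticoid targets tested 2 passed, both higher, against 3.6% of all genes, and the median was 1.02. Without control 1 as well 11 passed, all higher, beside 2197 of 14584 genes. *Klf15*, a transcription factor that raises amino acid catabolism in muscle and is on both lists, had 92.5, 56.5 and 46.8 CPM in controls and 184, 149.9 and 191 CPM in SN-011 samples (log2 fold change 1.52, SE 0.27, adjusted p = 0.0327). *Tsc22d3*, which encodes the glucocorticoid-induced leucine zipper GILZ, had 422, 262 and 207 CPM and 683, 827 and 739.9 CPM (log2 fold change 1.26, SE 0.28, adjusted p = 0.0471). *Glul*, glutamine synthetase, had 943, 404 and 292 CPM and 1906, 1989 and 1732 CPM and missed the threshold (log2 fold change 1.74, SE 0.45, adjusted p = 0.0629). Control 1 was the highest of the controls for these 3 genes, and every SN-011 sample lay above it.

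In the unfolded protein response list 3 of 18 passed, all higher, against 3.6% of all genes. *Herpud1*, which serves the degradation of misfolded proteins of the endoplasmic reticulum, had 135, 123 and 108 CPM and 309, 269 and 282 CPM (log2 fold change 1.28, SE 0.12, adjusted p = 0.0158), and *Atf4*, the transcription factor of the integrated stress response, had 215, 187 and 193 CPM and 404, 292 and 354 CPM (log2 fold change 0.93, SE 0.11, adjusted p = 0.0198). *Ppp1r15a*, which encodes the phosphatase subunit GADD34, also passed (log2 fold change 1.46, adjusted p = 0.0463). Of 17 p53 and oxidative stress targets, 4 passed and were higher, with 3 of them, *Srxn1*, *Gclm* and *Hmox1*, known as targets of NRF2. *Srxn1*, sulfiredoxin, had 46.6, 42 and 30.5 CPM and 122, 96 and 89.5 CPM (log2 fold change 1.42, SE 0.21, adjusted p = 0.0259). Immediate early and heat shock genes had 5 higher and 2 lower of 28, against 3.6% and 3.8% of all genes. *Atf3*, a stress-induced factor, rose from 5.54, 7.53 and 9.58 CPM to 22.1, 12.1 and 24.6 CPM (log2 fold change 1.62, adjusted p = 0.0218), while *Egr1* and *Fosb*, factors induced within minutes of stimulation, fell (log2 fold changes −1.43 and −2.61, adjusted p = 0.0266 and 0.0424).

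Contractile genes are read against the 3.6% of all genes that passed as higher and the 3.8% that passed as lower. *Actn3*, *Tnni2* and *Tnnt3*, all parts of the fast-fibre sarcomere, were the 3 of 12 fast fibre genes that passed, with log2 fold changes of 0.41, 0.40 and 0.34 (adjusted p = 0.034, 0.0406 and 0.0442), and were also the 3 of 15 skeletal muscle fibre markers that passed. Scaled by library size alone, 0 of the 12 and 0 of the 15 passed as higher, and edgeR's exact test passed 0 as well. Of 13 slow fibre genes 0 passed in edgeR's quasi-likelihood test, with 5 higher at an unadjusted p under 0.05, beside 14.6% of all genes, and 2 in DESeq2, though the median log2 fold change was 1.11. Over 6 libraries in limma voom with sample quality weights, 10 of the 13 passed as higher, with a median of 1.24, beside 2200 of 14198 genes. Control 2 was low for the slow genes: *Myl3*, a slow and cardiac light chain, had 91.9, 23.2 and 124 CPM in controls and 185, 128 and 255 CPM in SN-011 samples (log2 fold change 1.46, SE 0.59, adjusted p = 0.152). In excitation-contraction coupling 3 of 18 passed, all lower, and 6 with library size alone. *Clcn1*, the chloride channel that sets the resting conductance of fibres, fell from 95.9, 134 and 112 CPM to 48.5, 14 and 51 CPM (log2 fold change −1.19, SE 0.16, adjusted p = 0.0215), and *Stac3* and *Jph2*, which encode an adaptor of the voltage sensor and a tether of the junctional membranes, fell by 0.69 and 0.82 on the log2 scale (adjusted p = 0.0308 and 0.0442).

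Among denervation and regeneration genes 2 of 20 passed as higher and 1 as lower, against 3.6% and 3.8% of all genes. *Musk*, the receptor kinase of the neuromuscular junction, rose from 5.28, 3.74 and 3.13 CPM to 12.3, 10.3 and 11 CPM (log2 fold change 1.53, SE 0.24, adjusted p = 0.0275), and *Hdac4*, a deacetylase raised by denervation, rose from 42.5, 35.1 and 39.7 CPM to 63.9, 121 and 66.2 CPM (log2 fold change 0.73, adjusted p = 0.0275). *Myod1*, a myogenic factor of satellite cells and fibres, fell from 4.01, 6.9 and 9.68 CPM to 1.43, 6.04 and 1.93 CPM, with SN-011 2 among the controls (log2 fold change −2.03, SE 0.42, adjusted p = 0.0448). Both *Myod1* and *Pax7* are also satellite cell markers, of which 10 were tested, 2 passed as lower and 1 as higher, with a median of −0.08. *Pax7*, the defining factor of satellite cells, had 4.43, 2.6 and 3.88 CPM and 1.36, 0 and 1.13 CPM (log2 fold change −1.54, adjusted p = 0.0452). *Sdc4*, syndecan 4, a heparan sulfate proteoglycan of the cell surface, rose from 51.4, 23 and 31.7 CPM to 141, 221 and 129 CPM, without overlap (log2 fold change 1.93, SE 0.30, adjusted p = 0.0278). Of 29 PPAR and fatty acid oxidation genes 5 passed, all higher, against 3.6% of all genes, with a median of 0.66. In DESeq2 14 passed as higher and 1 as lower, beside 1096 and 1044 of 14903 genes. Without control 1 as well these were 23 and 1, beside 2197 and 2210 of 14584 genes. *Ppard*, the PPAR of muscle, had 29.2, 26.9 and 30.2 CPM and 59.2, 53.5 and 51.5 CPM (log2 fold change 0.94, SE 0.11, adjusted p = 0.0198). Of 83 nuclear oxidative phosphorylation subunits 5 passed as higher (6.02%, against 3.6% of all genes), and 78 of the 83 had a positive log2 fold change and 39 were higher at an unadjusted p under 0.05. DESeq2 passed 19 of the 83, limma voom with sample quality weights over 6 libraries 42, library size alone 0 and edgeR's exact test 0. Of 77 cytosolic ribosomal proteins 0 passed in edgeR's quasi-likelihood test, and 75 had a positive log2 fold change, with a median of 0.34. For the ribosomal proteins 48 were higher at an unadjusted p under 0.05, beside 14.6% of all genes, and 19 passed in DESeq2, beside 1096 of 14903 genes. Without control 1 as well 65 of the 77 passed as higher, beside 2197 of 14584 genes. In limma voom with sample quality weights over 6 libraries 65 also did, beside 2200 of 14198. Scaled by library size alone the median was 0.15 beside −0.21 over all genes.

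Of 9 tenocyte markers all were tested and 7 passed as lower, against 3.8% of all genes, with a median of −1.95. *Fmod* was described above. *Egr1*, given above among the immediate early genes, is also on this list and was 1 of the 7. *Kera*, keratocan, a relative of fibromodulin, fell from 7.18, 9.28 and 6.96 CPM to 0.584, 4.41 and 1.13 CPM, where SN-011 2 was less low than the others (log2 fold change −3.15, SE 0.32, adjusted p = 0.0194). With 9, 54 and 20 counts in SN-011 1 to 3, *Kera* entered the test without SN-011 2 through the controls. The size of its change is not read further. *Thbs4*, thrombospondin 4 of the myotendinous junction, fell from 83.7, 75.3 and 75.8 CPM to 39.7, 18.6 and 33.6 CPM (log2 fold change −1.09, SE 0.12, adjusted p = 0.0196). The summed level of the 9 markers was 198 to 236 CPM in controls and 62.6 to 73.0 CPM in SN-011 samples, without overlap, and 4 of the 9 were at 0 in SN-011 2 and none elsewhere. The labels do not say how the muscle was cut from its tendon, and the part of tendon tissue in these changes was not tested.

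Of 25 collagen and matrix genes, 13 passed as lower and 1 as higher, against 3.8% and 3.6% of all genes, with a median of −0.91. *Tnc*, tenascin C, a matrix protein of tendon and injured tissue, fell from 7.12, 8.66 and 6.51 CPM to 0.973, 0 and 0.624 CPM (log2 fold change −3.22, SE 0.29, adjusted p = 0.0146). *Col5a3*, a chain of fibril-regulating collagen V, fell from 73.3, 82.5 and 94.5 CPM to 39.8, 40.5 and 36.8 CPM (log2 fold change −1.12, SE 0.14, adjusted p = 0.0202). *Col6a3* and *Col6a2*, chains of the collagen VI microfibrils around fibres, fell from 45.7, 65.5 and 56.6 CPM to 15.1, 24.1 and 20.7 CPM and from 94.6, 114 and 111 CPM to 45.5, 32.3 and 56.5 CPM (log2 fold changes −1.64 and −1.06, SEs 0.21 and 0.14, adjusted p = 0.0202 and 0.0218). At these 4 genes the groups did not overlap. *Lox*, lysyl oxidase, which cross-links collagen, was the gene that passed as higher, from 25.4, 19.5 and 18 CPM to 42.2, 36.3 and 32.6 CPM (log2 fold change 0.84, SE 0.18, adjusted p = 0.0477), and is named after its values were seen. With library size alone 17 matrix genes passed as lower and 0 as higher. Fibro-adipogenic progenitor markers had 5 of 12 lower, against the same 3.8%, and none higher, among them *Lum*, *Cd34*, *Col1a1* and *Clec3b*. *Cd34* had 58.8, 67.3 and 77.3 CPM in controls and 34.1, 73.6 and 41 CPM in SN-011 samples, with SN-011 2 among the controls. Its log2 fold change was −0.85 without SN-011 2 and −0.45 with it. *Col1a1*, the main chain of collagen I, had 292, 499 and 440.04 CPM and 176, 128 and 168 CPM (log2 fold change −1.25, SE 0.23, adjusted p = 0.034). Over 6 libraries 1 tenocyte marker passed, *Fmod*, and 0 matrix genes did in edgeR's quasi-likelihood test, with 16 matrix genes lower and 1 higher at an unadjusted p under 0.05, beside 5.8% and 8.96% of all genes. In DESeq2 14 matrix genes passed as lower and 1 as higher, beside 412 and 468 of 14198 genes.

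**Figure D3:**
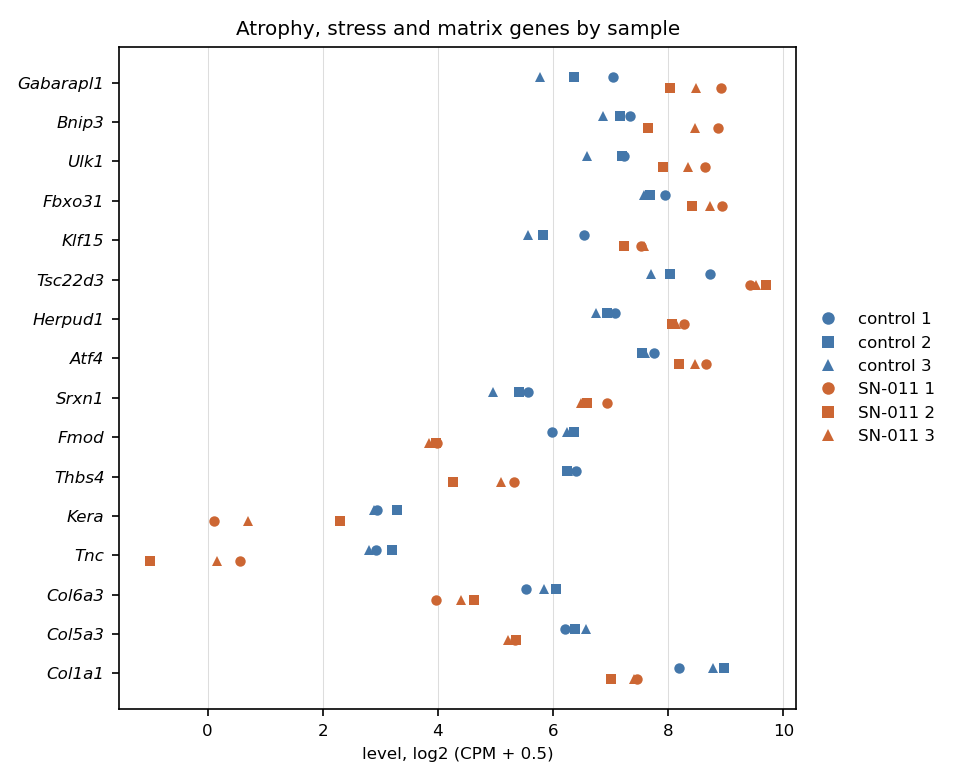
Level of breakdown, glucocorticoid, stress, tendon and matrix genes in each library, as log2 (CPM + 0.5), with controls in blue and SN-011 in orange and a marker shape for each replicate number. From *Gabarapl1* to *Srxn1* the SN-011 samples lie to the right of every control, and from *Fmod* to *Col1a1* to the left, with *Tnc* at a count of 0 in SN-011 2.

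**Figure D4:**
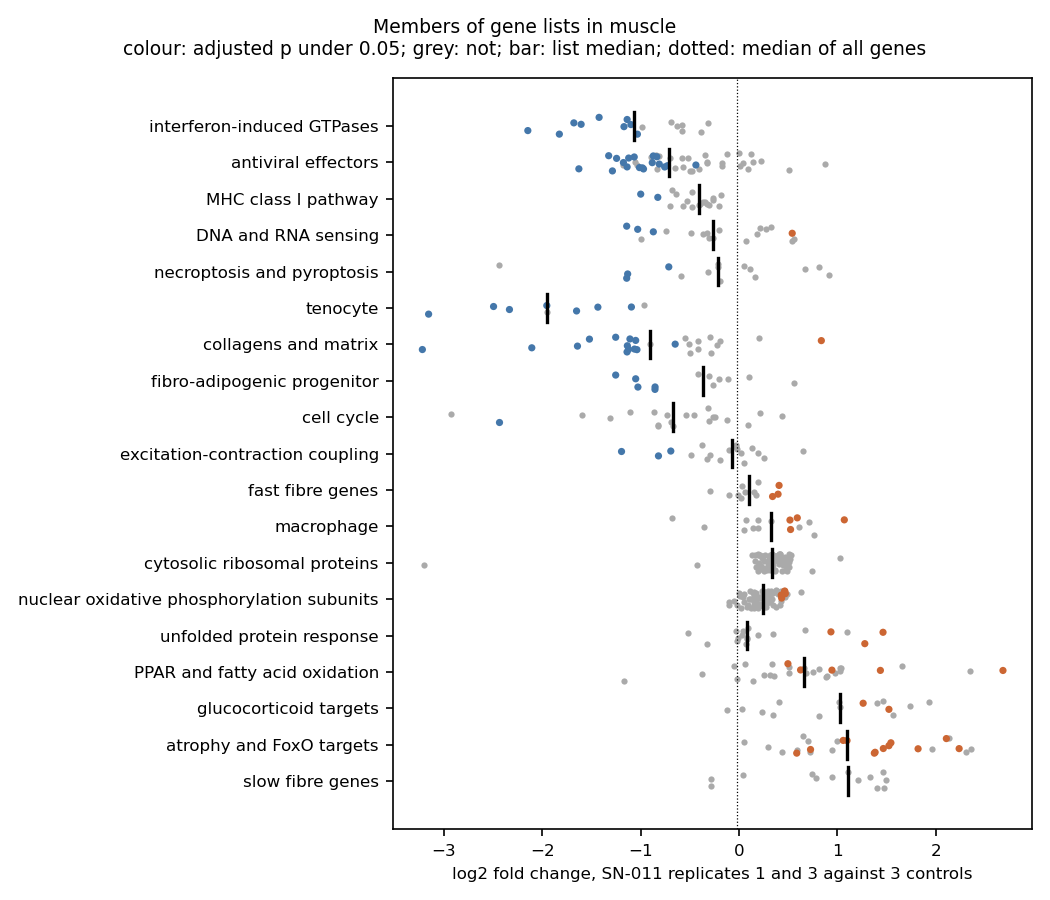
Log2 fold change of each tested member of 19 gene lists without SN-011 2 (horizontal axis), with members past an adjusted p of 0.05 in colour (blue lower, orange higher), others in grey, and the median of each list as a bar. Among the lists drawn, medians run from −1.95 for tenocyte markers to 1.11 for slow fibre genes, beside −0.02 for all genes (dotted).

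Markers of other cells are given by their counts and summed levels. Adipocyte markers had 0 of 12 past the threshold in edgeR's quasi-likelihood test, with 1 higher at an unadjusted p under 0.05 and 1 in DESeq2, and varied between controls: their sum was 2669 CPM in control 1, 620 and 849 CPM in controls 2 and 3, and 1992 to 3626 CPM in SN-011 samples. Without control 1 as well, 9 of the 12 passed as higher, with a median of 2.66, and 8 did over 6 libraries in limma voom with sample quality weights, with a median of 3.14. Erythroid markers were likewise uneven, with sums of 787, 193 and 298 CPM in controls and 859 to 1164 CPM in SN-011 samples and 0 of 7 past the threshold in edgeR's quasi-likelihood test, 2 higher at an unadjusted p under 0.05 and 0 in DESeq2. All 7 passed as higher without control 1 as well, with a median of 2.34, and in limma voom with those weights, with a median of 2.07. Over all genes these fits passed 2197 of 14584 and 2200 of 14198 as higher. Cardiac markers, of which 8 of 10 were tested, had 4 higher at low levels, *Nppa*, *Myh6*, *Nppb* and *Tnni3*, against 3.6% of all genes. Control counts were 2, 0 and 2 for *Nppa* and 0, 0 and 0 for *Nppb*. These genes entered the test only through SN-011 1 and 3 and were not tested over 6 libraries, so that their calls are not read as changes. *Myh6* and *Tnni3* had counts in every control and 0 in SN-011 2. *Myh6*, the cardiac myosin, had 4.27, 2.89 and 2.52 CPM in controls and 14.6, 0 and 10.7 CPM in SN-011 samples (log2 fold change 1.97, SE 0.27, adjusted p = 0.0218), and *Nppa*, the atrial natriuretic peptide, had 0.106, 0 and 0.101 CPM and 3.63, 0 and 2.1 CPM, its controls being under the floor of 3 counts. The summed level of cardiac markers was 26.1 to 34.9 CPM in controls and 56.6, 18.4 and 47.5 CPM in SN-011 1 to 3, with 7 of the 10 at 0 in SN-011 2 and 1 to 3 at 0 in the others. T and NK cell markers had 1 of 15 lower and B and plasma cell markers 1 of 11 lower, *Thy1* and *Cd79a*, against 3.8% of all genes. *Thy1* had 16.7, 21.8 and 19.4 CPM in controls and 9.67, 33.9 and 12.2 CPM in SN-011 samples, with SN-011 2 above every control. Its log2 fold change was −0.82 without SN-011 2 and −0.06 with it. *Cd79a* had 3, 0 and 2 counts in SN-011 samples and entered the test through the controls. Neutrophil markers summed to 3.00 to 6.51 CPM in controls and 4.28 to 13.5 CPM in SN-011 samples, and 4 of 10 were tested. The part of these cells in the changes above was not tested.

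By size, the largest rises without SN-011 2 whose groups did not overlap over 6 libraries were led by *Gm10309*, a predicted gene that lies opposite to *Prkce*, with 0.897, 0.453 and 0.101 CPM in controls and 29.8, 57 and 24 CPM in SN-011 samples (log2 fold change 5.79, SE 0.46, adjusted p = 0.0146). The study's methods describe a strand-specific library, but the strand setting of the counting is not given in the sources used here, so that reads of its antisense partner may be among its counts. *Mrgprg*, an orphan receptor of the Mas-related family, had 0.528, 0.34 and 0 CPM and 8.18, 5.79 and 8.84 CPM (log2 fold change 4.87, SE 0.62, adjusted p = 0.021). Control counts were 17, 8 and 2 for *Gm10309* and 10, 6 and 0 for *Mrgprg*, so that both entered the test through the SN-011 samples. The sizes and calls of these changes rest on few control counts and are not read further. *Spp1*, which encodes osteopontin, a secreted phosphoprotein of macrophages and injured muscle, rose from 1.79, 2.21 and 3.53 CPM to 31.2, 15.7 and 22 CPM (log2 fold change 3.4, SE 0.29, adjusted p = 0.0146). *Slc39a14*, the zinc and iron importer ZIP14, rose from 24.6, 11.4 and 9.48 CPM to 123, 90.8 and 98.7 CPM (log2 fold change 2.87, SE 0.39, adjusted p = 0.0218). *Il6ra*, the receptor of interleukin 6, rose from 17.6, 9.39 and 6.66 CPM to 77, 27.9 and 61.5 CPM (log2 fold change 2.63, SE 0.37, adjusted p = 0.024). *Nfil3*, a basic leucine zipper repressor that acts in the circadian clock and in cytokine responses, rose from 30.7, 14 and 38.2 CPM to 183, 210.5 and 181 CPM (log2 fold change 2.72, SE 0.37, adjusted p = 0.0224). The other 4 of the 10 were *Cacna1i*, *Maff*, *Inmt* and *6430548M08Rik*, with log2 fold changes of 2.72, 2.71, 2.7 and 2.54.

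The largest falls were all of genes under 100 CPM, and 7 of the 10 stood at 0 in SN-011 2, as that library does for many genes. *Dusp10*, a phosphatase of p38 and JNK, was among those with counts in every library, and fell from 43.5, 65.1 and 91.3 CPM to 8.44, 9.54 and 12 CPM (log2 fold change −2.7, SE 0.35, adjusted p = 0.0212). *Nmrk2*, a muscle nicotinamide riboside kinase that feeds NAD synthesis, fell from 17.1, 36.3 and 56.5 CPM to 5.65, 8.97 and 8.79 CPM (log2 fold change −2.34, SE 0.52, adjusted p = 0.0479). *Alox15*, an arachidonate lipoxygenase, fell from 14.9, 11.9 and 2.22 CPM to 0.195, 0 and 0.454 CPM (log2 fold change −4.84, SE 1.03, adjusted p = 0.0455). With 3, 0 and 8 counts in SN-011 samples *Alox15* entered the test through the controls, and the size of its change is not read further. *Ccnd1*, cyclin D1, fell from 3.91, 6.23 and 7.67 CPM to 1.1, 0 and 1.08 CPM (log2 fold change −2.44, SE 0.36, adjusted p = 0.0258), and was the 1 of 21 cell cycle genes that passed, against 3.8% of all genes, with 6 passing with library size alone. The others were *Tnc* and *Kera*, given above, and *Muc5ac*, *6430571L13Rik*, *Sec14l5* and *Fam83d*, with log2 fold changes of −3.61, −3.1, −2.9 and −2.5. In the clock list, *Nfil3* and *Cry2* were the 2 of 19 that passed as higher and *Bhlhe41* the 1 that passed as lower, against 3.6% and 3.8% of all genes. *Bhlhe41* fell from 25.6, 49 and 37 CPM to 10.5, 6.36 and 13.4 CPM (log2 fold change −1.64, SE 0.28, adjusted p = 0.0319). With library size alone 1 clock gene passed as higher and 4 as lower. The labels give no time of day for the samples.

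Whether a change differed between muscle and the other tissues was tested as an interaction over all 24 samples, the SN-011 change in muscle minus the mean change in heart, stomach and tongue. With all muscle libraries, 112 of 19731 genes passed, 50 with muscle higher (0.253%) and 62 with muscle lower (0.314%), and without muscle SN-011 2 these were 45 (0.219%) and 26 (0.126%) of 20575. *Cdkal1* differed by 2.35 on the log2 scale (SE 0.25, adjusted p = 0.000205). Its group mean, in CPM of the total count, went from 14.7 to 49.6 in muscle, from 14.9 to 10.2 in heart, from 12.2 to 9.17 in stomach and from 9.34 to 8.11 in tongue. *Tgif1* differed by 1.91 (SE 0.27, adjusted p = 0.00425) and *Pdp2*, a phosphatase that activates pyruvate dehydrogenase, by 2.36 (SE 0.35, adjusted p = 0.00425). These 3 rose in muscle, and the ratio of their group means in the other tissues lay between −0.52 and 0.38 on the log2 scale. In the other direction, *Rbfox2*, a splicing factor of muscle and neurons, differed by −1.32 (adjusted p = 0.00355), *Mast4*, a microtubule-associated kinase, by −1.8 (adjusted p = 0.00639), and *Plekhh3* by −2.12 (adjusted p = 0.00736). All 3 fell in muscle and had a higher SN-011 mean in stomach, and against heart and tongue alone 7 genes of 19731 passed, all with muscle higher.

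**Figure D5:**
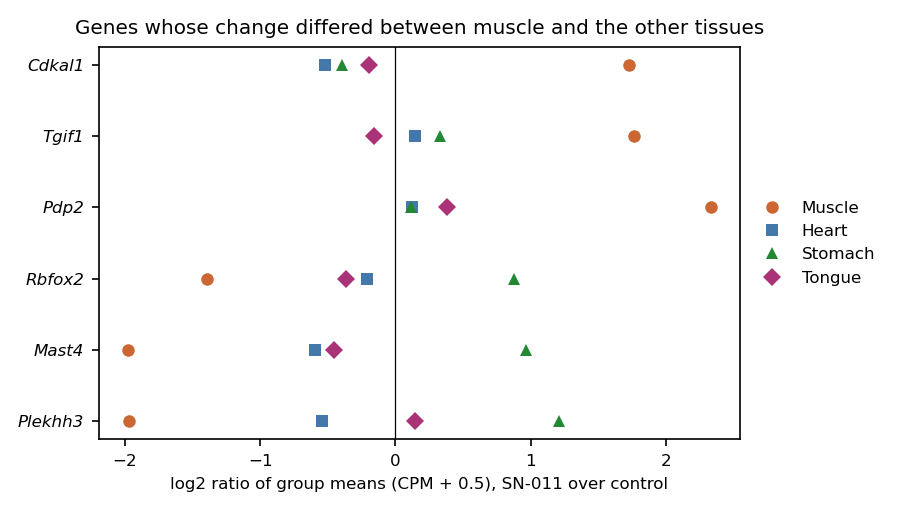
SN-011 over control ratio of group means, as log2 of (CPM + 0.5) scaled by total count, in the 4 tissues, for the 3 genes in each direction with the smallest interaction p. Muscle points (orange) lie to the right of the others for *Cdkal1*, *Tgif1* and *Pdp2* and to the left for *Rbfox2*, *Mast4* and *Plekhh3*, where stomach (green) lies at the right.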

How the data were processed

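Per the labels, poly(A)-selected RNA of muscle was sequenced as read pairs, and the submitters' processing notes name HISAT2, HTSeq and mm10, while the study's methods name featureCounts. The deposited values were raw counts per gene made by the authors, with 54532 genes in each file and no other per-sample columns. Counts were tested with edgeR 4.0.16 (R 4.3.3): filterByExpr with a minimum count of 10, TMM scaling, and the quasi-likelihood test of 3 SN-011 against 3 control samples, with p-values adjusted over every gene tested by the Benjamini-Hochberg method and a threshold of 0.05. The same fit was made without SN-011 2, as was an interaction over all 24 samples. CPM used TMM-scaled totals, and TPM the gene model length. Symbols came from GENCODE M21, which held 54495 of the gene identifiers, and promoters from RefSeq GRCm38.p6. The scripts were tested on simulated counts. Depth was 14253416 to 18443329 counts per sample, so that 3 counts were 0.151 to 0.245 CPM.

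Named genes were those that passed over 6 libraries, the 10 largest rises and 10 largest falls without SN-011 2 among protein-coding genes whose groups did not overlap and whose higher group averaged 5 CPM or more, up to 4 members of each list with the smallest p, the genes for STING, cGAS, *Trex1*, *Cxcl10*, *Mlkl*, *Zbp1*, *Isg15* and *Ifit3*, *Xist* and *Ddx3y* as a check of sex, and the 3 smallest interaction p in each direction. The gene lists and these choices were made with earlier results of these data known. The Schwann cell, mast cell, keratinocyte, smooth muscle, endothelial, glycolysis and mitochondrial mRNA lists are given among the other observations. Alternatives were other scalings, filters and tests (DESeq2 1.42.0, limma 3.58.1), a replicate block, a joint fit of all tissues and leaving out each replicate.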

Additional observations from a re-analysis of the deposited data

Results flagged for a closer look

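In groups of 3 no test for a single outlying sample was made. The results below differed between muscle and the mean of heart, stomach and tongue by an interaction term in edgeR's quasi-likelihood test over all 24 samples. The 3 in each direction were taken by smallest p. In the direction of a larger rise in muscle, the difference was 2.35 for *Cdkal1*, 1.91 for *Tgif1* and 2.36 for *Pdp2* on the log2 scale, with muscle means of 7.23 to 14.7 CPM in controls and 35.5 to 49.6 CPM in SN-011 samples. In the direction of a larger fall, it was −1.32 for *Rbfox2*, −1.80 for *Mast4* and −2.12 for *Plekhh3*, where stomach moved upwards, with log2 ratios of group means of 0.88, 0.97 and 1.21. Without muscle SN-011 2, *Arhgap26* had a difference of 1.68 (adjusted p = 0.00459), *Bcl6*, a transcriptional repressor, of −1.74 (adjusted p = 0.00838) and *Tnc* of −3.07 (adjusted p = 0.00838). *Bcl6* had a log2 ratio of −1.23 in muscle and 1.62 in stomach. Samples of different tissues may share mice, which the labels do not say, and the fit treated them as independent.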

How the results depend on the processing

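Over 6 libraries, 2 genes passed, and the count was 1 with DESeq2 size factors, 1 with library size alone, 110 with no filter on low counts, 75 with at least 10 counts in every library, 880 in DESeq2, 479 in edgeR's exact test, 474 in a joint fit of all tissues, 4222 in limma voom with sample quality weights, 4407 without SN-011 2 and control 1, and 0 to 1103 when single replicates were left out, the highest being without SN-011 2. Without SN-011 2, 1103 genes passed, and the count was 2099 with library size alone, 1692 with no filter, 2140 in DESeq2, 2068 in edgeR's exact test, 350 in the joint fit, 537 at a log2 fold change of at least 1, and 0 to 4407 when a further replicate was left out. The interaction gave 112 genes, 194 with at least 10 counts in every library, 7 against heart and tongue alone and 71 without SN-011 2. The cause of these moves was not tested. With a replicate block, pairing samples by labelled number, 0 genes passed over 6 libraries (1425 at an unadjusted p under 0.05, edgeR's quasi-likelihood test) and 732 without SN-011 2. Deviations of same-numbered samples correlated at 0.054, 0.0042 and 0.032, so that the numbers are not shown to pair the samples.

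Signs turned for 4 genes. *Tmem173* over 6 libraries ran from −0.93 to 0.067 when single replicates were left out, the last without SN-011 2, and in the 5 libraries it ran from −0.071 to 0.16 and was −0.12 with library size alone. *Cgas* in the 5 libraries ran from −0.62 to 0.17 and was 0.078 with the replicate block. *Cd14* over 6 libraries ran from −0.086 to 1.07 and was −0.33 with the block, and *Thy1* ran from −0.82 to 0.25. Depth limits genes near 3 counts, and the spread rests on 2 SN-011 samples once SN-011 2 is left out.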

Other observations

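Lists not yet described are given without SN-011 2, where 3.6% of all genes passed as higher and 3.8% as lower. Of 12 endothelial markers 1 rose, *Flt1*, a VEGF receptor, and 1 fell, *Cdh5*, the endothelial cadherin, with log2 fold changes of 0.50 and −0.56 (adjusted p = 0.0463 and 0.034, edgeR's quasi-likelihood test). Of 10 smooth muscle and pericyte markers *Acta2*, smooth muscle actin, passed as higher (log2 fold change 0.64, adjusted p = 0.0429), and with library size alone 0 passed as higher and 2 as lower. DESeq2 passed 2 higher and 2 lower endothelial markers and 3 higher and 1 lower smooth muscle and pericyte markers. Of 21 glycolysis and glycogen genes *Gpi1*, glucose phosphate isomerase, and *Slc2a1*, the glucose transporter GLUT1, passed as higher (log2 fold changes 0.44 and 0.86, adjusted p = 0.0463 and 0.0325), as did *mt-Nd4* and *mt-Cytb* of 13 mitochondrially encoded mRNAs (log2 fold changes 0.40 and 0.40, adjusted p = 0.0467 and 0.0484). With library size alone 0 of the 13 mitochondrial mRNAs passed, as in edgeR's exact test, and 1 glycolysis gene passed as higher and 1 as lower. The endothelial markers then had 0 higher and 3 lower. In the lists of 10 Schwann cell, 5 mast cell and 3 keratinocyte genes tested, 0 passed in edgeR's quasi-likelihood test, with 0, 2 and 2 at an unadjusted p under 0.05 and 0, 1 and 1 in DESeq2.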
